A study of Mus musculus with 8 samples.

Results

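Tumour cells were the GL261 glioma cells found in single-cell libraries of mouse brain, and the question was whether their RNA differed between hosts that lacked Acod1 and wild-type (WT) hosts. Of 5698 cells kept in 8 libraries, 3270 were tumour cells, all from the 6 libraries of tumour-bearing mice. A cell was kept when its barcode was among the 1000 with the most UMIs of its library and held at least 1000 genes. A UMI, or unique molecular identifier, marks 1 captured RNA molecule. A kept cell was called a tumour cell when Col9a1, Col3a1, Lect1, Rhox5, Car6 and Syt4 together gave at least 10 UMIs per 10000, with at least 3 of them detected, and the myeloid genes Tyrobp, Fcer1g and Ctss together gave at most 20. None of the 454 and 454 cells kept from naïve WT and naïve KO brains passed this rule.

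All hosts were C57BL/6 mice by the labels, and the methods name the WT hosts as C57BL/6N littermates. WT hosts were Irg1/Acod1 +/+ and KO hosts Irg1/Acod1 -/-, an allele made by inserting a cassette between exons 3 and 5 in the germ line, so every host cell carried it. In both groups 500 GL261 cells were implanted into the brain, at a site that the labels give as the right striatum and the methods as the frontal cortex, and tissue was taken at a tumour volume of 5 to 10 mm3 (early), 20 to 25 mm3 (intermediate) or 30 to 35 mm3 (late). Each combination of genotype and stage was 1 library from 1 mouse, which gave 3 KO libraries against 3 WT libraries with the stage as a block. GL261 is an established line that was implanted alike in both groups, so the genotype is that of the host and not of the tumour cell. By the study's methods the WT early and KO intermediate mice were female and the other 4 tumour-bearing mice male. The numbering of the deposited tables also sets those 2 libraries apart, in a set with both naïve libraries, and whether that was a separate run is not given in the sources used here. Host sex and this set cannot be told apart. The late pair was therefore the only pair matched for sex. With stage as a block, p-values rest on how the difference between single KO and WT mice varied from stage to stage. That variation includes the differences in sex within the other pairs.

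Acod1 encodes the enzyme that makes itaconate from an intermediate of the tricarboxylic acid (TCA) cycle, and it is known from activated macrophages. Interferon gamma, secreted mainly by T cells and natural killer cells, binds a receptor present on most cells and signals through the kinases JAK1 and JAK2. The signal acts at short DNA elements called GAS and induces the transcription factor IRF1, and raises the genes of antigen presentation by MHC class I and, through CIITA, by class II. Many tumour cells respond in this way, and class II on a glioma cell is usually low without such a signal.

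The libraries held 252 tumour cells of 722 kept cells (WT early), 928 of 1000 (WT intermediate), 563 of 712 (WT late), 501 of 734 (KO early), 540 of 841 (KO intermediate) and 486 of 781 (KO late). Their summed depth ranged from 2878092 to 8001526 UMIs per library, and the median cell held 3782 to 6582.5 UMIs. Any pair of libraries shared between 0 and 2 barcodes among the 1000 largest. Of 4 tumour markers that the rule did not use, Col11a1, a cartilage-type collagen, reached between 664.1 and 1468 CPM (UMIs of a gene scaled to a common total per library) in tumour cells and between 66.27 and 225.4 CPM in the other cells of the same libraries. Dppa2 and Etv2, which are developmental genes, had at most 5 and 7 UMIs in the other cells of any library and at least 37 and 15 in its tumour cells. Cd44, an adhesion receptor, did not separate the classes, with 112 to 159 CPM in tumour cells and 73.1 to 144 CPM in other cells.

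The tumour cells made up 34.9%, 92.8% and 79.1% of kept cells in WT early, intermediate and late and 68.3%, 64.2% and 62.2% in KO. The mean share was 68.9% ± 30.2 (SD, n = 3) in WT and 64.9% ± 3.07 (SD, n = 3) in KO. The difference of -4.03 percentage points was smaller than the spread of the WT libraries, and it ran from -22.72 without the early stage to 8.254 without the intermediate stage (tumour cell share KO versus WT). A two-sided exact permutation test that exchanged genotypes within stages gave p = 1.0, but it cannot go below 0.25 in this design and so decides nothing. The share of captured cells depends on dissection and capture, which cannot be told apart here from the make-up of the tumour.

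Acod1 itself, on chromosome 14 of GRCm38 from 103046977 to 103056573, was close to 0 in tumour cells of both host groups. The tumour cells held 19, 15 and 6 Acod1 UMIs in WT early, intermediate and late and 6, 20 and 5 in KO. All 20 UMIs of the KO intermediate library lay in 1 cell. In the other cells of the same libraries Acod1 had 142, 6 and 4 UMIs in WT and 27, 6 and 36 in KO, which is 68.8, 17.2 and 6.35 CPM in WT and 31.9, 4.66 and 27.2 CPM in KO. Acod1 UMIs were thus present in KO hosts, and at the late stage their level was above that of WT. Where the counted reads lie relative to the inserted cassette was not tested, so these UMIs are no check of the host's label.

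Across the whole transcriptome no gene passed the test. For this comparison UMIs were summed over the tumour cells of a library, and 13531 genes were fitted with edgeR's quasi-likelihood test with stage as a block and Benjamini-Hochberg adjustment at 0.05. The test called 0% of the genes higher and 0% lower in KO hosts, and the smallest adjusted p was 0.341. At an unadjusted p under 0.05, 450 genes (3.33%) were higher and 301 (2.22%) lower in KO hosts. DESeq2 on the same sums called 31 genes higher (0.238% of 13006 with an adjusted p) and 16 lower (0.123%), with 536 at an unadjusted p under 0.05. All 3 KO libraries lay above all 3 WT libraries for 650 genes (4.80%) and below them for 657 (4.86%). These shares, and the 3.33% and 2.22% at an unadjusted p under 0.05, are the background for every list below. The median fitted log2 fold change over all genes was 0.00. The values below therefore describe 6 mice, and no single gene is called changed from the edgeR test.

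The largest list medians, leaving aside the marker lists of other cell types, were those of genes known from the interferon gamma response. The sums of class I, class II and GTPase genes had the same shape. All 3 KO libraries and the WT early library were high, and the WT intermediate and WT late libraries were low. The short promoter windows below were chosen because they hold an element of either kind marked below. They are from genes that followed the pattern and from Isg15, which did not. The background above describes only GAS, and the windows of B2m, Gbp2 and Isg15 hold only the other element. The windows of Tap1 and Psmb9, which followed the pattern, held neither element, nor did the second annotated windows of Irf1 and Irf8. They were taken from the RefSeq annotation of GRCm38.p6 and cover 250 bases before to 50 after the start. Capitals mark a GAS element (TTCNNNGAA, which reads the same on both strands) or an interferon-stimulated response element (ISRE, searched as GAAA and GAAA with any 2 bases between them, or TTTC and TTTC on the other strand). The first 5 genes were lower in WT intermediate and late tumour cells, and Isg15, which is induced mainly by type I interferon, was not.
Irf1, chr11:53769764-53770063, plus strand: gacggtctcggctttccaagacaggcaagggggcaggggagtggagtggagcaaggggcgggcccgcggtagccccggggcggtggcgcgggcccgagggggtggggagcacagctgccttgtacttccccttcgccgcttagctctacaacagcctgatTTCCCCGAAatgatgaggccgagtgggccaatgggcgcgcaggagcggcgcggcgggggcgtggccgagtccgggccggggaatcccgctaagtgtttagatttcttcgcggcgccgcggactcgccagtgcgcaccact
Irf8, chr8:120736108-120736407, plus strand: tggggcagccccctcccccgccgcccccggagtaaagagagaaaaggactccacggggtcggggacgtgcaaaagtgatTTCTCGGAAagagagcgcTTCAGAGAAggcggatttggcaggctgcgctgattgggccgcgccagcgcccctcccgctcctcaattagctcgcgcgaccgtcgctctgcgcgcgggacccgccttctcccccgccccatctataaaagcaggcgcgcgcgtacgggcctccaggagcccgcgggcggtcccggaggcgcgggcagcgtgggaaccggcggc
B2m, chr2:122147437-122147736, plus strand: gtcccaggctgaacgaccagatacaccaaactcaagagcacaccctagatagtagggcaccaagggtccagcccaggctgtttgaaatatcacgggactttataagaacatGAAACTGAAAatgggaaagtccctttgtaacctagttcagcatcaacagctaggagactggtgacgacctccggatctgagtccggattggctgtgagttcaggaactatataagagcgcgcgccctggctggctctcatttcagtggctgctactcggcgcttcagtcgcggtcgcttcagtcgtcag
Igtp, chr11:58199306-58199605, plus strand: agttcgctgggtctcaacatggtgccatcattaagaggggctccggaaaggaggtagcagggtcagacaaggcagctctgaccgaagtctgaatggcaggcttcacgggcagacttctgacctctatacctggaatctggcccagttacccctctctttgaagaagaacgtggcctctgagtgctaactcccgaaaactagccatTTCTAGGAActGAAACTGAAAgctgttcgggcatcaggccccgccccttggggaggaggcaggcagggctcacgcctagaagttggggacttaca
Gbp2, chr3:142620413-142620712, plus strand: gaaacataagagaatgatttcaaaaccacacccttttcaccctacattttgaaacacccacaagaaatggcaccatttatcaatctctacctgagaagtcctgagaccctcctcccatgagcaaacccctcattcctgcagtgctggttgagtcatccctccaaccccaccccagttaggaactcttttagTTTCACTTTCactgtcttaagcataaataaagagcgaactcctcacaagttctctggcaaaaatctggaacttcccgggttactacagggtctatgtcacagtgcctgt
Isg15, chr4:156200769-156201068, minus strand: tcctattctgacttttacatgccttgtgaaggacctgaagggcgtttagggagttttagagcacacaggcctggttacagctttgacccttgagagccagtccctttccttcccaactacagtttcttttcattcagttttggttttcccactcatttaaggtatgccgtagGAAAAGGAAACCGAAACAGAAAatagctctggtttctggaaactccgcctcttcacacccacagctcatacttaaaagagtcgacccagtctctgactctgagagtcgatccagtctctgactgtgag
Of 27025 genes with such a window, 9.55% held a GAS element and 3.99% an ISRE. Of the 18 genes of the interferon signalling list, 17 had a window, of which 6 held a GAS element and 3 an ISRE. Of the 22 genes of the MHC class I list, 19 had a window, of which 1 held a GAS element and 5 an ISRE. For the class II list (5 of 8 genes) and the GTPase list (10 of 16) the check is void, since under 80% of their genes had a window. A match of letters is not a measured site.

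At the receptor the libraries did not separate. Ifngr1 and Ifngr2, the chains of the interferon gamma receptor, had levels of 25.7, 37.0 and 31.0 CPM and of 11.95, 12.45 and 12.43 CPM in WT early, intermediate and late, and of 41.7, 32.5 and 41.8 CPM and of 12.9, 8.45 and 14.9 CPM in KO. The kinase genes Jak1 and Jak2 had fitted log2 fold changes (KO minus WT) of 0.23 (standard error 0.19) and 0.01 (standard error 0.26). Of the 18 genes of the interferon signalling list, all tested, 6 were higher in KO at an unadjusted p under 0.05 and none lower. The share over all genes was 3.33% higher. The median log2 fold change of the list was 0.29. The genes higher in KO included Stat2, Stat3, Irf1, Irf8 and Socs1.

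Irf8, a transcription factor of the same family as Irf1, gave the largest separation of the signalling genes. It lies on chromosome 8 from 120736358 to 120756694 and had 69.2, 6.58 and 5.28 CPM in WT and 122.9, 86.6 and 102.9 CPM in KO. Every KO library lay above every WT library, and the fitted log2 change was 2.88 (standard error 0.64, adjusted p = 0.537 by edgeR). Irf8 is also a gene of myeloid cells, whose RNA in these droplets is given below. Irf1, an early target of the pathway, had 257.3, 88.9 and 53.8 CPM in WT and 280.6, 203.2 and 272.5 CPM in KO. Socs1, the feedback inhibitor of the JAK kinases, had 32.3, 13.5 and 10.4 CPM in WT and 55.5, 19.9 and 44.3 CPM in KO, so that KO intermediate lay below WT early.

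The genes of MHC class I presentation were higher in KO hosts as a list. All 22 members were tested, 19 were higher at an unadjusted p under 0.05 against 3.33% of all genes, and none was lower. Their median log2 fold change was 1.13. The count was 8 without the stage block, 19 without WT early, 9 without WT late and 6 without KO late. For 4 of them, B2m, H2-K1, Psmb10 and Calr, all KO libraries lay above all WT libraries, against 4.80% of all genes. The list summed to 21190, 10220 and 8858 CPM in WT and to 23830, 21830 and 25390 CPM in KO. The KO sum was 1.124 times the WT sum at the early stage, 2.14 times at the intermediate stage and 2.87 times at the late stage.

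B2m, the light chain of every class I molecule (chromosome 2, 122147686 to 122153083), had 6763, 3207 and 2760 CPM in WT and 8588, 7709 and 8659 CPM in KO. The fitted log2 difference was 1.09 (standard error 0.28, adjusted p = 0.601 by edgeR and 0.0115 by DESeq2). H2-K1, a class I heavy chain, had 2873, 948.9 and 688.4 CPM in WT and 2939, 3032 and 4077 CPM in KO. The KO early and WT early levels of H2-K1 were nearly the same, whereas KO late was the highest library. Psmb9, a subunit of the immunoproteasome that cuts peptides for class I, had 602.4, 153.2 and 81.0 CPM in WT and 694.1, 580.5 and 600.3 CPM in KO. Tap1, the peptide transporter encoded beside Psmb9 on chromosome 17, had 237.2, 95.9 and 48.2 CPM in WT and 268.8, 221.1 and 301.0 CPM in KO.

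Canx and Calr, chaperones of class I assembly, differed less between libraries than the class I genes above. Canx, which is made in every cell, had 1327, 1208 and 1138 CPM in WT and 1108, 1409 and 1369 CPM in KO, and the fitted log2 change was 0.08 (standard error 0.19). Calr had 1421, 1485 and 1409 CPM in WT and 1799, 1534 and 1899 CPM in KO. Reads of H2-Q4, H2-Q6, H2-Q7, H2-T22 and H2-T23 can be split between near-identical genes, so their single values are uncertain and H2-Q7, the member with the largest ratio, is given by its values only, 231.3, 45.4 and 33.9 CPM in WT and 230.8, 282.4 and 395.3 CPM in KO.

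MHC class II gave the largest differences between libraries. All 8 genes of this list were tested, and 7, Ctss among them, were higher at an unadjusted p under 0.05, against 3.33% of all genes. The median log2 fold change was 3.27. For none of them did all KO libraries lie above all WT libraries. The list summed to 4619, 199.3 and 123.2 CPM in WT and to 4841, 3790 and 4486 CPM in KO, a ratio of 1.05 at the early, 19.0 at the intermediate and 36.4 at the late stage. Ctss, a member of this list, is also one of the genes that the rule limits, so its value is not independent of the rule. It had 27.8, 7.54 and 35.4 CPM in WT and 56.1, 15.8 and 73.6 CPM in KO, which is not the shape of the list sum.

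Cd74, the invariant chain that guides class II molecules (chromosome 18, 60803848 to 60812652), had 1131, 36.6 and 25.9 CPM in WT early, intermediate and late. In KO it had 1244, 1062 and 991.7 CPM. The fitted log2 difference was 3.69 (standard error 1.10, adjusted p = 0.678 by edgeR). The log2 ratios of KO over WT at the early, intermediate and late stage, with exact binomial 95% intervals, were 0.14 (0.07 to 0.20), 4.86 (4.69 to 5.03) and 5.26 (5.03 to 5.50). These intervals cover counting error only, since each stage is 1 mouse against 1 mouse. The chain genes H2-Aa and H2-Eb1 followed it, with 950.0 and 1261 CPM in WT early, 25.6 and 41.2 CPM in WT intermediate and 10.2 and 12.6 CPM in WT late. In KO, H2-Aa had 954.9, 721.3 and 900.2 CPM and H2-Eb1 1182, 944.4 and 1109 CPM. Ciita, the coactivator that switches class II genes on, had 14.4, 1.20 and 0.51 CPM in WT and 10.4, 8.01 and 17.4 CPM in KO, so that WT early lay within the range of the KO libraries.

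**Figure D1:**
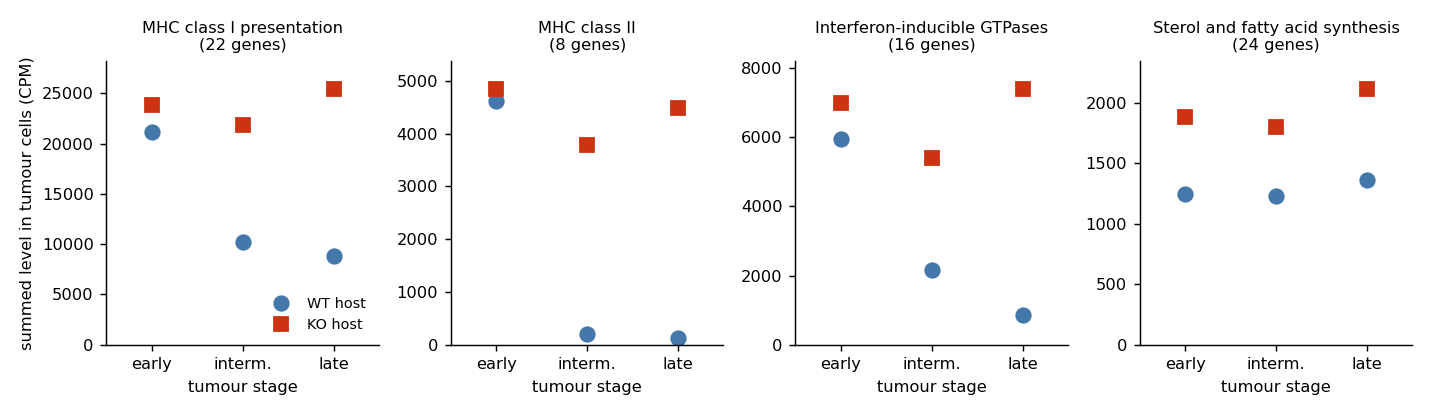
Summed levels of 4 gene lists in tumour cells. The vertical axes give summed CPM from 0, the horizontal axes the tumour stage, and each point is 1 library, blue circles for WT and red squares for KO hosts. In the class I, class II and GTPase panels the WT early point lies near the KO points and the WT intermediate and late points lie below, whereas in the sterol and fatty acid panel the 3 WT points (1228 to 1364 CPM) all lie below the 3 KO points (1801 to 2114 CPM).

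The interferon-inducible GTPases, which attack the vacuoles of intracellular microbes, behaved like class II at a smaller scale. All 16 were tested, 14 were higher in KO at an unadjusted p under 0.05 against 3.33% of all genes, and none was lower. The median log2 fold change was 1.69. The count was 4 without the stage block, 9 with DESeq2, 16 without WT early, 7 without WT late and 6 without KO late. They summed to 5962, 2163 and 852.2 CPM in WT and to 6982, 5406 and 7386 CPM in KO. Iigp1 had 828.7, 160.7 and 37.3 CPM in WT and 954.0, 720.8 and 983.2 CPM in KO, and the fitted log2 change was 2.30 (standard error 0.79, adjusted p = 0.781 by edgeR). Gbp2, the most abundant of them, had 1065, 427.1 and 76.3 CPM in WT and 1237, 831.3 and 1635 CPM in KO, and KO intermediate lay below WT early. For Igtp, Ifi47 and Tgtp1 all KO libraries lay above all WT libraries, against 4.80% of all genes. Igtp had 597.1, 188.6 and 62.3 CPM in WT and 958.0, 644.6 and 776.0 CPM in KO. Irgm1, which DESeq2 called (adjusted p = 0.0411), had 799.5, 425.7 and 221.3 CPM in WT and 923.5, 952.6 and 745.0 CPM in KO. Gbp and Tgtp genes have close copies, between which counts can be split.

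Genes best known from the type I interferon response had a smaller median change than the class I, class II and GTPase lists. Of 32 other interferon-stimulated genes, all tested, 7 were higher in KO at an unadjusted p under 0.05, against 3.33% of all genes. None was lower, and the median log2 fold change was 0.32. For 6 of them all KO libraries lay above all WT libraries, against 4.80% of all genes. Isg15, a ubiquitin-like modifier, had 192.9, 179.6 and 158.3 CPM in WT and 166.6, 172.6 and 149.4 CPM in KO. Ifit1 and Rsad2, which act against viral RNA and virus budding, were highest in WT intermediate, at 91.9 and 197.2 CPM. In the other 5 libraries they had 25.2 to 43.2 CPM and 49.5 to 92.5 CPM. The most abundant members were Ifitm3, with 1048, 1423 and 1182 CPM in WT and 2191, 1460 and 1627 CPM in KO, and Bst2, with 931.0, 597.8 and 481.2 CPM in WT and 1103, 1035 and 748.9 CPM in KO. Zbp1, a sensor of nucleic acids that DESeq2 called (adjusted p = 0.0176), had 181.7, 105.4 and 79.8 CPM in WT and 264.2, 212.7 and 224.1 CPM in KO. The fitted log2 difference was 1.01 (standard error 0.21, adjusted p = 0.520 by edgeR).

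**Figure D2:**
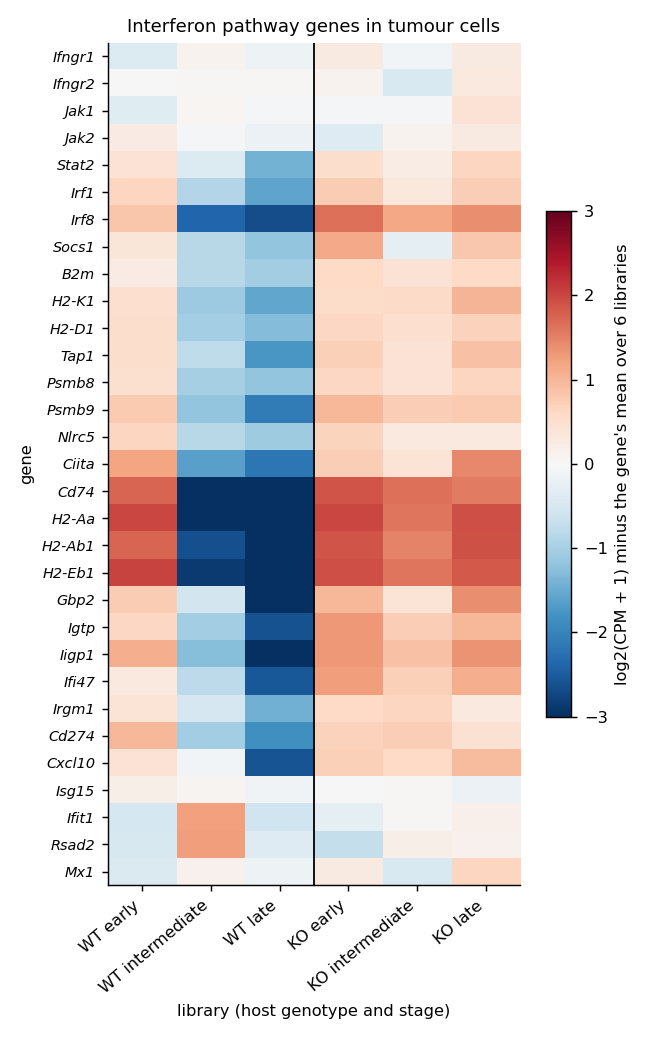
Interferon pathway genes in tumour cells. Columns are the 6 libraries, rows are genes, and colour gives log2(CPM + 1) minus the gene's mean over the libraries, red above and blue below, with the scale ending at 3 in both directions. From Stat2 to Cxcl10 the WT intermediate and late columns are blue or, for Cxcl10 at the intermediate stage (320.9 CPM), near white, while the receptor and kinase genes at the top and Isg15, Ifit1, Rsad2 and Mx1 at the bottom do not follow this split.

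Genes of secreted molecules, some of them known from the interferon gamma response, were compared as a further list. Of 31 chemokine and cytokine genes 18 had enough UMIs to be tested, 2 were higher in KO at an unadjusted p under 0.05 and none lower, with a median log2 fold change of 0.37. Cxcl10, which attracts T cells, had 456.2, 320.9 and 55.2 CPM in WT and 554.8, 514.4 and 654.8 CPM in KO, so that all KO libraries lay above all WT libraries (adjusted p = 0.896 by edgeR). Cxcl9, another chemokine of this response, did not have this order, with 89.6, 4.31 and 0.34 CPM in WT and 9.50, 9.10 and 16.04 CPM in KO. WT early was far above every KO library, and the early log2 ratio of KO over WT was -3.24 (-3.81 to -2.71). That interval covers counting error only, and 3 cells held 91.8% of the 255 Cxcl9 UMIs of the WT early tumour cells. In the other cells of WT early Cxcl9 had 426.3 CPM. Il18 had 8.44, 7.66 and 3.41 CPM in WT and 14.1, 17.1 and 16.6 CPM in KO. Il18bp, which encodes the soluble antagonist of that cytokine and is in none of the lists, had 49.5, 13.4 and 9.36 CPM in WT and 95.8, 55.2 and 97.6 CPM in KO, and DESeq2 called it (adjusted p = 7.0e-05). Mif, the most abundant cytokine gene, had 1077, 993.1 and 1327 CPM in WT and 1984, 1265 and 913.4 CPM in KO.

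Of 23 genes for checkpoint ligands and stress ligands 15 were tested, 3 were higher and 1 lower in KO at an unadjusted p under 0.05, with a median log2 fold change of 0.35. Cd274 encodes PD-L1, an inhibitory ligand for T cells, and had 40.4, 9.10 and 4.77 CPM in WT and 32.2, 33.6 and 27.4 CPM in KO. The fitted log2 difference was 1.32 (standard error 0.51, adjusted p = 0.853 by edgeR). Nt5e, which makes adenosine, went the other way with 4.92, 4.67 and 10.4 CPM in WT and 1.15, 0.65 and 3.87 CPM in KO. Cd47, a signal against uptake by macrophages and the most abundant member, had 356.0, 255.3 and 192.2 CPM in WT and 301.3, 382.9 and 333.6 CPM in KO.

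The difference lay in most tumour cells and not in a few. To compare cells of unequal depth, each cell was thinned to 2000 UMIs, which left out 0 to 105 shallower cells per library. The median tumour cell then held 9, 0 and 0 class II UMIs in WT early, intermediate and late and 10, 6 and 8 in KO. Cells without a class II UMI made up 0.901%, 84.9% (exact 95% binomial interval 82.5% to 87.2%) and 88.9% (85.7% to 91.6%) in WT and 1.51%, 5.64% and 2.62% in KO. For the GTPases the median was 11, 2 and 1 in WT and 12, 9 and 12 in KO. The WT intermediate library was the most uneven in GTPases, with a median of 2 and a 95th percentile of 22, against 1 and 5 in WT late. For class I the 25th percentile of each KO library, between 33 and 41 UMIs, lay above the 75th percentile of WT intermediate (27) and WT late (23).

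**Figure D3:**
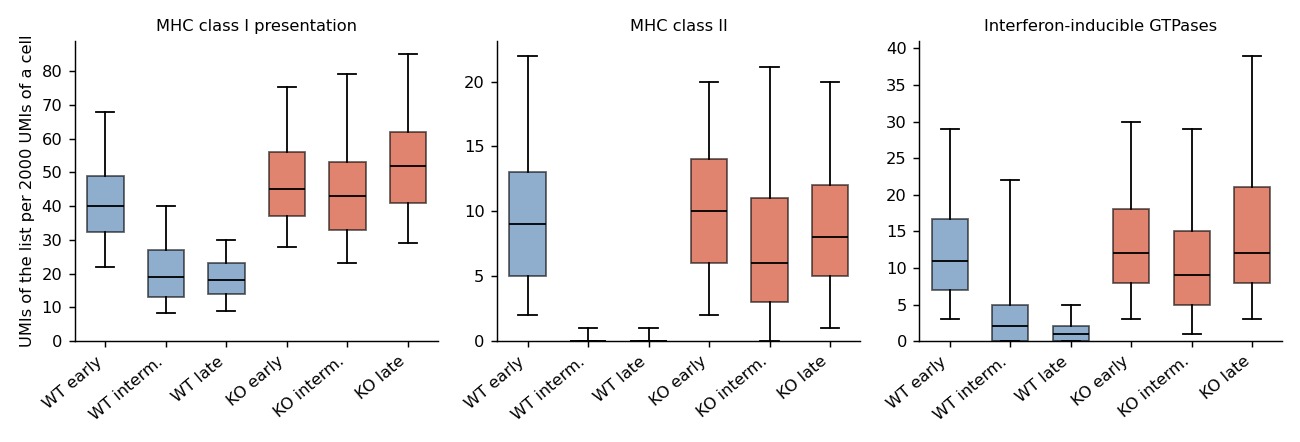
UMIs of 3 lists in single tumour cells after each cell was thinned to 2000 UMIs. The vertical axes give UMIs per cell, boxes span the 25th to the 75th percentile with a line at the median, and whiskers end at the 5th and 95th percentile, blue for WT and red for KO hosts. The class II boxes of WT intermediate and WT late lie at 0, while the medians of the other 4 libraries lie between 6 and 10.

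RNA from other cells in the tumour-cell droplets was measured from genes that are abundant in host cells. Xist, which is transcribed in cells of a female, gave 1293 UMIs in the other cells of the WT early library and 809 in those of KO intermediate, the female hosts, and 35 and 15 UMIs in their tumour cells. The level in tumour cells was thus 1.94% and 0.517% of that in the other cells. C1qa, a microglial gene, and Lyz2, a macrophage gene, lay between 0.290% and 1.32% and between 0.173% and 0.876% of their level in the other cells over the 6 libraries. Cd74 lay at 23%, 10.2% and 2.90% in WT and at 18.6%, 17.0% and 20.6% in KO. Iigp1 and Psmb9 were higher in tumour cells than in the other cells in every library, at 125% to 266% and 120% to 237%. In WT late the shares of H2-Aa and H2-Eb1 were 2.00% and 2.46%. Other genes of host cells had larger shares in some libraries. Ptgds, a prostaglandin synthase of the meninges and oligodendrocytes, lay between 1.04% and 6.31% in 4 libraries but at 20.9% in KO early and 19.7% in KO late. Nkg7, a gene of cytotoxic lymphocytes, reached 5.43% in KO early and 12.8% in KO late, and Ifng 12.9% and 15.96% there. These lie in or near the range of the Cd74 shares of the KO libraries, so the class II shares do not stand clear of every host gene. Tyrobp, which the rule limits, lay between 0.233% and 2.47%.

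**Figure D4:**
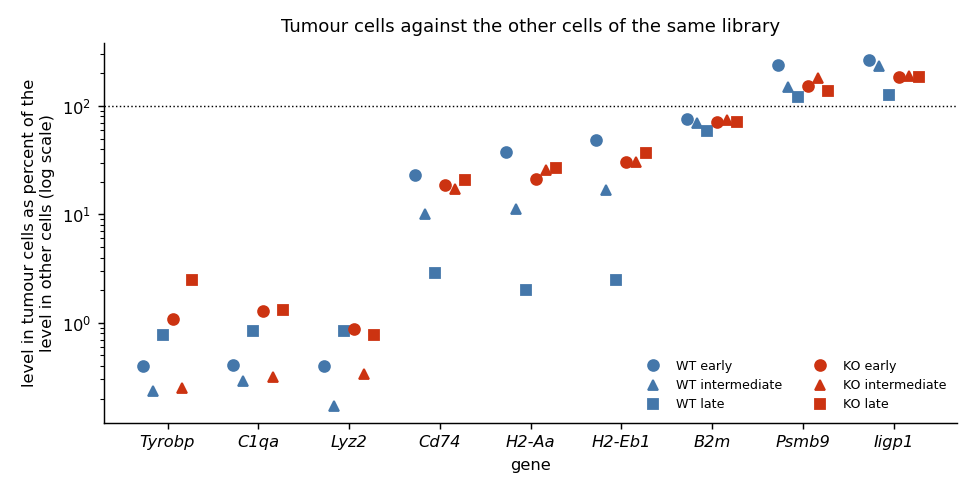
Level of 9 genes in tumour cells as a percent of the level in the other cells of the same library. The vertical axis is logarithmic, the dotted line marks 100 percent, and each point is 1 library, blue for WT and red for KO hosts, with circles for early, triangles for intermediate and squares for late. The myeloid genes Tyrobp, C1qa and Lyz2 lie at or below 2.47 percent, the class II genes between 2.00 and 48.0 percent and Psmb9 and Iigp1 above 100 percent in all libraries.

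At these low levels the marker lists of microglia, macrophages and lymphocytes were higher in KO at each stage. In none of them was KO intermediate above every WT library. The endothelial list summed to 287.8, 258.4 and 151.8 CPM in WT and 584.5, 331.6 and 551.6 CPM in KO. The oligodendrocyte list summed to 1610, 2606 and 2978 CPM in WT and 1980, 1803 and 1779 CPM in KO. All host markers together made up 0.280%, 0.444% and 0.410% of tumour-cell UMIs in WT and 0.350%, 0.319% and 0.370% in KO. Of 9 microglial markers tested 3 were higher in KO at an unadjusted p under 0.05, C1qa, C1qb and C1qc, and the 11 genes of the list summed to 210.5, 99.3 and 173.0 CPM in WT and 241.4, 173.1 and 278.6 CPM in KO. The macrophage list summed to 63.6, 37.9 and 94.5 CPM in WT and 142.2, 38.1 and 147.2 CPM in KO. The lymphocyte list, of which 3 of 14 genes were tested and all 3 (Nkg7, Trac, Trbc2) were higher in KO at an unadjusted p under 0.05, summed to 20.0, 1.68 and 8.85 CPM in WT and 49.8, 4.55 and 178.7 CPM in KO. Ifng UMIs occurred in the tumour-cell droplets of 2 libraries, with 45 in KO early and 13 in KO late. In the other cells Ifng had 83, 0 and 0 UMIs in WT early, intermediate and late and 81, 11 and 30 in KO, where the 0 counts of WT intermediate (72 other cells) and WT late (149) allow up to 8.61 and 4.76 CPM. KO intermediate had 8.54 CPM, which is within the first of these limits. With at most 5 myeloid UMIs per 10000, and in the 50% of tumour cells with the lowest share of other cell types' markers, 19 class I, 14 GTPase and 15 sterol genes were higher at an unadjusted p under 0.05, as in all tumour cells. The class II median was 3.50 and 3.33 in these cells.

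Sterol synthesis was the second group, and here WT early sided with the other WT libraries. Of 24 genes of sterol and fatty acid synthesis and uptake 22 were tested. For 15 of them (against 4.80% of all genes) every KO library lay above every WT library, and for none below. At an unadjusted p under 0.05, 15 were higher (against 3.33% of all genes) and none lower, and the median log2 fold change was 0.62. The count was 15 without the stage block and without WT early, and 9 without WT intermediate or KO intermediate. The list summed to 1247, 1228 and 1364 CPM in WT and to 1883, 1801 and 2114 CPM in KO, or 1280 ± 73.3 (SD, n = 3) against 1932 ± 162 (SD, n = 3). The ratio was 1.51, 1.47 and 1.55 at the early, intermediate and late stage.

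Scd2, a desaturase that makes monounsaturated fatty acids and the most abundant member, had 235.8, 217.6 and 175.0 CPM in WT and 354.8, 344.4 and 450.6 CPM in KO, and DESeq2 called it (adjusted p = 0.0489). Hmgcs1, an enzyme of an early step of sterol synthesis, had 63.6, 79.7 and 87.7 CPM in WT and 109.4, 108.9 and 137.5 CPM in KO. Sqle, Msmo1, Cyp51 and Dhcr7, later steps of the same path, lay above WT in every KO library too, Msmo1 with 103.7, 111.7 and 130.6 CPM in WT and 210.7, 163.7 and 185.1 CPM in KO.

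Not every member took part. Srebf2, the transcription factor that drives these genes, had 48.5, 36.9 and 45.3 CPM in WT and 39.1, 58.9 and 50.6 CPM in KO. Fasn, the fatty acid synthase, and Acaca, which supplies it, had fitted log2 differences of 0.21 (standard error 0.19) and -0.06 (standard error 0.26). Idi1 stayed under 5 CPM in all libraries. Dbi, a binder of acyl-CoA that is in none of the lists, had 2622, 2343 and 1590 CPM in WT and 5935, 3923 and 4501 CPM in KO, and the fitted log2 change was 1.14 (standard error 0.21, adjusted p = 0.514 by edgeR and 0.000196 by DESeq2).

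The genes with the smallest p-values belonged to no list or to the matrix list, and Dcn also to the marker list of mural cells and fibroblasts. None passed in edgeR, while DESeq2 called all 10. On the higher side, AA467197, which encodes a small mitochondrial protein (chromosome 2, 122636986 to 122641191), had 101.9, 55.0 and 34.4 CPM in WT and 236.0, 232.6 and 132.5 CPM in KO. It was higher in the other cells of every library, with 334.7, 352.9 and 90.5 CPM in WT and 809.4, 469.5 and 493.1 CPM in KO. Its UMIs in tumour cells were uneven, since 6 cells held 44.9% of them in KO early and 6 held 63.7% in KO intermediate. It was found in 15.8% to 29.0% of WT and 25.0% to 33.7% of KO tumour cells. The fitted log2 difference was 1.75 (standard error 0.21, adjusted p = 0.341 by edgeR and 7.7e-08 by DESeq2). Cdkn1c, an inhibitor of cyclin-dependent kinases, had 3.16, 5.98 and 3.75 CPM in WT and 10.1, 27.3 and 16.04 CPM in KO. Tes, a protein of focal adhesions, had 62.2, 27.6 and 27.8 CPM in WT and 115.4, 99.6 and 82.2 CPM in KO. Afp, alpha-fetoprotein, had 3.16, 3.95 and 13.1 CPM in WT and 16.4, 12.6 and 98.8 CPM in KO, so that KO late lay far above and KO intermediate just below WT late. Fam210b, a mitochondrial protein, had 26.7, 20.4 and 8.51 CPM in WT and 56.4, 50.5 and 20.5 CPM in KO.

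On the lower side, Fam13c (chromosome 10, 70440481 to 70558736) had 25.3, 57.0 and 61.8 CPM in WT and 7.77, 10.2 and 8.30 CPM in KO. Its log2 fold change was -2.39 (standard error 0.28, adjusted p = 0.341 by edgeR and 3.9e-07 by DESeq2). The gene was found in 14.3%, 15.9% and 15.3% of WT tumour cells and in 2.59%, 2.59% and 4.94% of KO tumour cells. Tro, which encodes the adhesion protein trophinin, had 21.4, 18.4 and 18.6 CPM in WT and 6.62, 5.198 and 6.64 CPM in KO. It was found in 13.04% to 16.3% of WT and 2.78% to 4.32% of KO tumour cells. For both genes every WT library lay far above every KO library, and these shares were not adjusted for depth. At each stage the median WT cell was deeper than the median KO cell, with 6582.5, 5857.5 and 4456 UMIs against 3782, 4819.5 and 4211.5.

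The other 3 genes on the lower side, Col1a2, Dcn and Prg4, were matrix genes whose UMIs lay in very few cells. Col1a2, a chain of fibrillar collagen I, had 32.0, 29.6 and 83.9 CPM in WT and 3.17, 0.22 and 0 CPM in KO, and Dcn, the proteoglycan decorin, 17.6, 11.7 and 36.8 CPM in WT and 2.30, 0.65 and 0.28 CPM in KO. In WT early 1 cell, in WT intermediate 4 and in WT late 4 cells held at least 5 Col1a2 UMIs, and no KO tumour cell did. Those 9 cells held 97.8%, 91.5% and 98.2% of the Col1a2 UMIs and 93.7%, 98.2% and 82.4% of the Prg4 UMIs of their library. They were also deep, with a median of 32470, 7708 and 20380 UMIs. Their Col9a1 level, 1.54, 29.4 and 9.32 UMIs per 10000, stood against 7.72, 25.7 and 16.5 in the rest. Syt4, Lect1 and Rhox5 were lower in these cells in all 3 libraries, Syt4 with 0.308, 1.63 and 1.75 against 6.14, 8.03 and 10.9 and Lect1 with 4.31, 13.4 and 7.69 against 16.9, 23.5 and 18.9 UMIs per 10000. Lum, a fibroblast gene, had 0, 4.58 and 1.98 UMIs per 10000 in them and at most 0.0113 in the rest. Among the other cells of KO libraries 3, 12 and 2 cells held at least 5 Col1a2 UMIs, and 1, 0 and 1 in WT. In KO late no UMI of Col1a2 was counted in 486 tumour cells, so the fitted fold changes of these genes carry no meaning as sizes.

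Over the matrix list of 35 genes, 32 were tested, and the median log2 fold change was -0.26. At an unadjusted p under 0.05, 9 genes were lower (against 2.22% of all genes) and 2 higher (against 3.33%) in KO. The lower genes included Col1a2, Dcn, Lox and Col5a2. In WT early, intermediate and late the cells rich in Col1a2 held 100%, 100% and 97.8% of the Lox UMIs. Of the Col5a2 UMIs they held 93.75%, 81.1% and 70.4%. Col9a1 and Col3a1, also in this list, are genes of the rule. Sparc, a matrix glycoprotein and the most abundant member beside Col9a1, was higher in every KO library, with 866.3, 1576 and 797.0 CPM in WT and 1910, 1690 and 2166 CPM in KO. It was detected in 81.9% to 97.5% of tumour cells in all libraries. Col11a1, one of the tumour markers outside the rule, had 1429, 1406 and 1304 CPM in WT and 697.9, 1278 and 779.0 CPM in KO. Col4a1, a basement membrane collagen, was less confined than Col1a2, with 12, 47 and 54 positive WT cells and 13, 7.90 and 19.4 CPM in WT against 3.45, 0.87 and 4.15 CPM in KO.

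**Figure D5:**
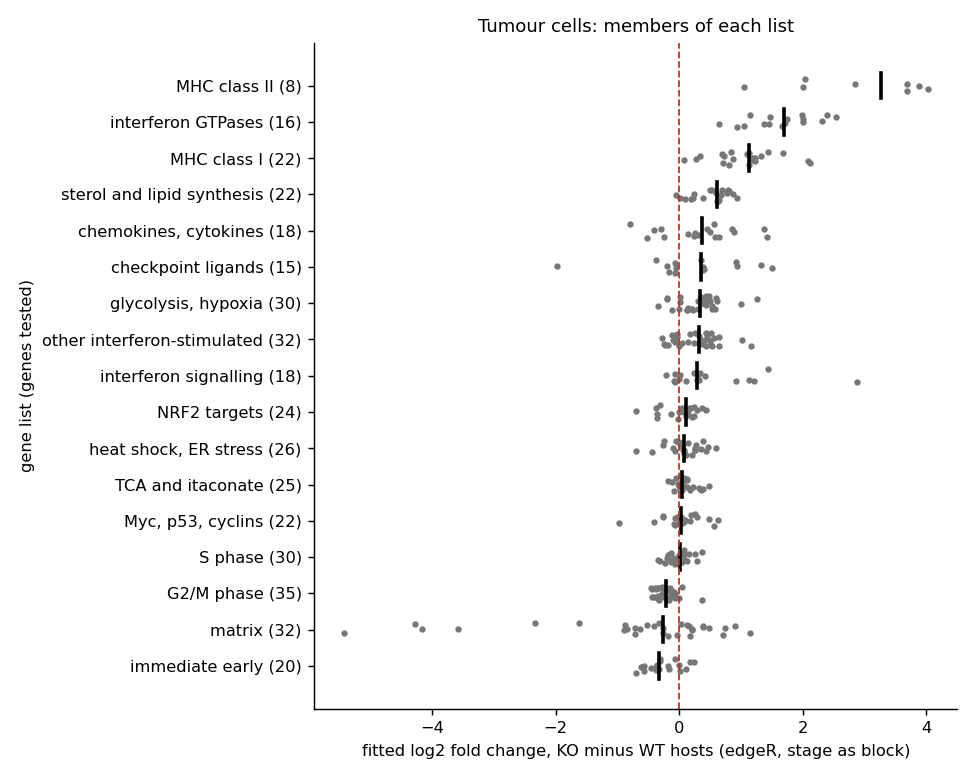
Fitted log2 fold changes of the members of 17 gene lists in tumour cells. Each grey point is a gene tested, the black bar is the list's median, the dashed line is the median of all genes at 0.00, and the horizontal axis is the log2 fold change of KO minus WT hosts from edgeR. The medians of class II, GTPases, class I and sterol genes are 3.27, 1.69, 1.13 and 0.62, and those of the metabolic and cell cycle lists lie between -0.22 and 0.33.

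Genes of glioma lineage and growth showed smaller differences. Olig2, a transcription factor of oligodendrocyte precursors and glioma, had 161.3, 209.8 and 225.7 CPM in WT and 92.7, 141.7 and 115.4 CPM in KO, without overlap, and the fitted log2 change was -0.78 (standard error 0.17, adjusted p = 0.520 by edgeR). Pdgfra, a growth factor receptor of the same lineage, had 10.9, 31.2 and 12.8 CPM in WT and 6.91, 7.58 and 8.30 CPM in KO. S100b had 381.0, 361.9 and 240.7 CPM in WT and 487.2, 601.9 and 439.3 CPM in KO. Sox2 and Nes, markers of neural stem cells, had fitted log2 differences of 0.13 (standard error 0.30) and -0.09 (standard error 0.17). Over the 18 genes of the list that were tested 1 was higher and 2 lower at an unadjusted p under 0.05, and the median was 0.09.

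Of 35 genes of the G2 and M phases, 33 had a negative and 2 a positive fitted value, with a median of -0.22, and 1 passed an unadjusted p of 0.05. That gene was Racgap1, which acts in cytokinesis, with 165.9, 156.3 and 186.9 CPM in WT and 116.6, 141.4 and 114.8 CPM in KO. Top2a, the most abundant member, had 1392, 1088 and 1104 CPM in WT and 1055, 1280 and 1063 CPM in KO. The share of tumour cells with at least 2 UMIs of the list after thinning to 2000 UMIs was 85.6%, 81.5% and 89.3% in WT and 84.3%, 77.2% and 85.1% in KO, a mean of 85.5% ± 3.93 (SD, n = 3) against 82.2% ± 4.33 (SD, n = 3). Without thinning it was 95.6%, 93.1% and 95.6% in WT and 93.8%, 86.1% and 93.6% in KO. It was lower in KO at all 3 stages, with differences of -1.24, -4.22 and -4.25 percentage points, while the mean difference of -3.24 was smaller than the SD of either group. The 30 genes of S phase had a median of 0.01.

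Myc had 129.0, 185.7 and 160.9 CPM in WT and 126.0, 98.6 and 132.8 CPM in KO, and the fitted log2 change was -0.41 (standard error 0.21), and Trp53 had 137.4, 105.7 and 127.2 CPM in WT and 146.2, 112.4 and 137.2 CPM in KO. Ccnd1, the cyclin of the G1 phase, had 856.1, 914.0 and 1003 CPM in WT and 1346, 1357 and 1559 CPM in KO, without overlap (adjusted p = 0.621 by edgeR). Zmat3, a p53 target, had 15.8, 10.2 and 18.9 CPM in WT and 8.92, 4.98 and 9.13 CPM in KO. Over the 22 genes tested of the list of Myc, p53 and cyclins the median was 0.03.

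The lists nearest to the missing enzyme differed little in tumour cells. Of 24 tested targets of NRF2, the antioxidant factor that itaconate can activate in macrophages, none passed an unadjusted p of 0.05, and their median log2 fold change was 0.10. Fth1 and Txn1, the most abundant of them, had fitted log2 differences of 0.05 (standard error 0.22) and 0.20 (standard error 0.18). Slc7a11, the cystine importer, had 11.2, 6.70 and 7.66 CPM in WT and 4.60, 3.90 and 7.19 CPM in KO. Of 25 tested genes of the TCA cycle and itaconate metabolism 1 was higher at an unadjusted p under 0.05, the citrate carrier gene Slc25a1 with 21.1, 23.7 and 20.3 CPM in WT and 32.5, 29.7 and 28.8 CPM in KO, and the median was 0.05.

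Glycolysis and hypoxia genes had a median of 0.33, with 1 of 30 at an unadjusted p under 0.05. The sum of this list was lowest in WT early (2864 CPM) and highest in KO early (6481 CPM), while the other 4 libraries lay between 4215 and 4486 CPM. Ldha, the lactate-forming enzyme, had 405.9, 639.6 and 669.0 CPM in WT and 1001, 579.6 and 582.3 CPM in KO, so its early pair and its later pairs went opposite ways. Immediate early genes had a median of -0.32, with 2 of 20 lower at an unadjusted p under 0.05, among them Ier2 with 229.8, 284.5 and 282.9 CPM in WT and 208.1, 171.1 and 120.9 CPM in KO. Fos, the most abundant, had 1112, 1737 and 1089 CPM in WT and 1411, 1040 and 993.4 CPM in KO. Of 26 genes of heat shock and endoplasmic reticulum stress 2 were higher and 1 lower, with a median of 0.08. Hsp90ab1, the most abundant gene of that list, had 7780 to 9208 CPM in all libraries.

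Genes encoded on the mitochondrial genome followed neither genotype nor stage. Their sum was 46440, 23630 and 15020 CPM in WT and 16280, 36700 and 13530 CPM in KO, and most of it was mt-Rnr2, a ribosomal RNA, with 41770, 19860 and 10150 CPM in WT and 11990, 32870 and 9219 CPM in KO. It was highest in WT early and KO intermediate, the libraries of the female hosts and of the set numbered with the naïve libraries. mt-Cytb, a messenger RNA, had 863.5, 1070 and 1468 CPM in WT and 1318, 906.9 and 1156 CPM in KO, with WT early and KO intermediate lowest. The Y-linked genes measured had at most 4.70 CPM each in tumour cells of any library. Galectins, annexins and S100 genes had a median of 0.07, and Lgals1, their most abundant member, had 1999, 2956 and 2956 CPM in WT and 3267, 2314 and 2845 CPM in KO.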

How the data were processed

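The authors converted the sequencer output with bcl2fastq 2.0, aligned reads with STAR to GRCm38 (mm10), and deposited raw UMI counts per gene and barcode, 3000 barcodes in each of 8 Drop-seq tables. The deposited counts are not normalized. The annotation they used is not given in the sources used here, and gene positions are those of GENCODE M21. Genes found in at least 30 of the 8000 largest barcodes were kept (18473). Tumour cells were taken by the rule above and summed per library. Sums were tested with edgeR 4.0.16 (TMM, filterByExpr, quasi-likelihood test, stage as block, R 4.3.3), after a test on simulated data. The residual degrees of freedom were 2. CPM are scaled by TMM, except where tumour cells are set against other cells, where totals alone were used. DESeq2 1.42.0, Scrublet (scanpy 1.11.5), and the changes to filters, scaling, cells and libraries in the closing section were alternatives. In libraries where it marked under 0.5% of cells, the top-scoring 5% were taken out in its place. Shares of cells carry exact binomial 95% intervals.

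Genes were named by a rule. It takes genes past the threshold, the 5 smallest unadjusted p-values in each direction among genes that moved the same way at all 3 stages, Acod1, Cd44, Myc, Trp53, the marker genes of the rule, and of each of 23 lists the 2 most abundant members and the member with the largest mean log2 ratio among those with at least 100 UMIs. Other genes were named after their values were seen. The members and lists were chosen with earlier results of these data known. Some genes of the lists are counted in them but not reported here by name.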

Additional observations from a re-analysis of the deposited data

Results flagged for a closer look

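Of the genes named by the rule, 28 had stage ratios beyond counting error in opposite directions, that is, KO above WT at 1 stage and below at another. Each stage is 1 mouse against 1 mouse, so the difference between stages was not tested. At the early stage 19 of them were higher and 9 lower in KO. The early log2 ratios of KO over WT among genes of glycolysis, metal binding and antioxidant defence were 1.30 for Ldha, 1.09 for Mt1, 0.91 for Mt2 and 0.51 for Fth1. Mif, a cytokine gene, had an early log2 ratio of 0.88. The early log2 ratios of Lgals1, Lgals3, Lgals9, S100a6 and Vim were 0.71, 0.62, 0.20, 0.41 and 0.63. The tumour markers of the rule had early log2 ratios of 1.43 for Car6, 1.52 for Col3a1, 0.26 for Col9a1, 0.30 for Lect1 and 0.29 for Syt4. These markers are counted among the 28, but the cells were chosen by them, so their levels are not independent of the rule. Cdc6, Cdk4, Fos and mt-Cytb had early log2 ratios of 1.17, 0.29, 0.34 and 0.61. The 9 genes lower in KO at the early stage had log2 ratios of -1.95 for Acod1, -0.24 for Cd47, -0.093 for H2-Eb1, -0.38 for Pcna, -0.16 for Socs3, -0.25 for Tfrc, -0.40 for Top2a, -2.27 for mt-Rnr1 and -1.80 for mt-Rnr2. For H2-Eb1 the intermediate and late ratios were 4.52 and 6.46.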

How the results depend on the processing

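The number of genes called by edgeR was 0 and stayed 0 with RLE size factors, without the stage block, with 500 genes per cell, with at most 5 myeloid UMIs, with equal totals, in the 50% of cells with the lowest share of other cell types' markers, without doublets and without the cells rich in Col1a2. It was 47 with DESeq2, 403 without a filter on low counts, 22 with host sex (and with it the set of tables) as a further covariate and 1 (Fam13c) with at least 20 tumour marker UMIs. In male hosts alone, 2 KO against 2 WT libraries without the stage block, chosen after seeing the data, it was 184, of which 140 were higher in KO. Leaving out a library or stage gave between 1 and 38 calls. Without WT early the 31 calls included Cd74, Irf8, H2-Aa and H2-Q7, and without the early stage there were 25, also with these 4 genes. Without WT intermediate there were 29 and without KO intermediate 23. Without KO early there were 27, without WT late 2 and without KO late 1. Without the late stage there were 2 and without the intermediate stage 38. Why the counts differ was not tested. The median of the sterol list ranged from 0.53 to 0.64 over all alternatives, that of class I from 0.70 to 1.75, of class II from 1.39 to 4.69 and of the GTPases from 0.70 to 2.62. The difference in tumour cell share KO versus WT was -22.7 percentage points without the early stage, 8.25 without the intermediate and 2.38 without the late stage. The difference in the share of cycling tumour cells per library was -3.24 percentage points and ranged from -4.234 to -2.73 over its alternatives. Of the values of 114 named genes under the alternatives, 2337 stayed on their side of the threshold and 155 passed it. A reversal of sign was counted only for genes whose main fold change exceeded its standard error, and among these it was 0. Genes with smaller main fold changes did change sign, such as Cxcl9 (-1.36 to 2.59) and Col3a1 (-0.54 to 0.78). No paired analysis was possible beyond the stage block, because the labels give no replicate numbers. Fold changes of genes with under 20 UMIs in a library rest on few molecules.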
